A study of Mus musculus with 20 samples.

Results

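The genes described here encode the signalling part of the T cell receptor (TCR) complex and the proteins next to it in splenic follicular T cells of mice: the CD3 chains *Cd3e*, *Cd3d* and *Cd3g*, the zeta chain *Cd247*, the kinases *Lck* and *Zap70*, the adaptor *Lat*, the coreceptor *Cd4* and the surface protein *Thy1*. They were chosen by name, as 9 of the 13798 genes in the expression table, and all 9 were found there. The study compared chimeras with B cell-driven autoimmunity with immunized controls. All recipients were irradiated C57BL/6 mice that received congenic bone marrow. The 5 WT chimeras received WT marrow and were immunized with NP-OVA in alum at week 6. The 5 564Igi chimeras received WT marrow mixed with marrow of 564Igi mice, which carry knocked-in heavy and light chains of an autoreactive B cell receptor, and the labels give no immunization for them. Of the WT chimeras 3 were male and 2 female, and of the 564Igi chimeras 2 and 3. The labels place the analysis of all 10 mice at week 10 after irradiation. The marrow mixture and the immunization differ together between the conditions and cannot be told apart. The sort took cells that were CD45.2+ and CD45.1-, stained for CD3 and CD4, and were CXCR5+ and PD-1+, so that surface CD3 and CD4, the products of some of these genes, were part of the gate. Each mouse gave 1 gene expression library and 1 TCR library, and the mouse is the replicate throughout.

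A TCR binds peptide on MHC but has no signalling domain of its own. CD3 epsilon, delta, gamma and zeta carry the tyrosine motifs that LCK, brought to the complex by CD4, phosphorylates. ZAP-70 then docks on the phosphorylated motifs and phosphorylates LAT, on which the complexes that open the calcium, diacylglycerol and Ras branches are built. THY1 is a GPI-anchored surface protein of mouse T cells. In follicular helper T (TFH) cells, which help B cells in germinal centers, and in *Foxp3*+ follicular regulatory T (TFR) cells, the strength of this signal is known to bear on differentiation.

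The libraries held 28192 cells, 1121 to 4030 per mouse, with a median of 2728 to 4376 raw UMIs per cell. The values are UMI counts that the authors corrected for depth in WT and 564Igi cells separately, so that every level set across the conditions also crosses separate normalizations. The mean corrected total per cell was 3366 to 3630 in WT mice and 3385 to 3836 in 564Igi mice. A level is the mean over a mouse's cells of log2(corrected UMIs + 1). In such means, fewer cells with a transcript and less transcript per cell cannot be told apart. The share of cells with at least 1 corrected UMI is therefore given where it adds to the level. Where a gene is said to be found, or a cell to hold its UMI, corrected UMIs are meant. Markers of other cells were low. *Cd79a* and *Ms4a1* of B cells were found in at most 0.410% and 0.239% of the cells of any mouse, *Lyz2* of myeloid cells in at most 0.372%, and *Cd8a*, *Ncr1*, *Cd14*, *Itgam*, *Adgre1*, *Siglech* and *Flt3* were not analysed here. *Cd79b* (2.38% to 5.24% of cells), *Cd8b1* (3.11% to 5.42%) and *Klrb1c* (1.96% to 7.18%) were found at low shares in every mouse. Across libraries, 491 cell barcodes recurred, in 988 cells, with at most 23 shared by any pair.

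The CD3 chains lie together on chromosome 9 (GENCODE vM21, GRCm38). *Cd3g* (ENSMUSG00000002033.14, chr9:44969572-44980431, minus strand), *Cd3d* (ENSMUSG00000032094.8, chr9:44981786-44987339, plus strand) and *Cd3e* (ENSMUSG00000032093.7, chr9:44998740-45009627, minus strand) are neighbors. *Cd3g* and *Cd3d* point away from each other across 1354 bases, and 11400 bases separate *Cd3d* from *Cd3e*. *Thy1* lies on the same chromosome (ENSMUSG00000032011.5, chr9:44043384-44048579, plus strand). *Zap70* (ENSMUSG00000026117.10, chr1:36761798-36782818, plus strand) and *Cd247* (ENSMUSG00000005763.15, chr1:165788681-165877277, plus strand) are far apart on chromosome 1. *Lck* (ENSMUSG00000000409.14, chr4:129548344-129573641, minus strand), *Cd4* (ENSMUSG00000023274.14, chr6:124864692-124888221, minus strand) and *Lat* (ENSMUSG00000030742.7, chr7:126363824-126369570, minus strand) each lie on a chromosome of their own.

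The 250 bases before the transcription start are shown for the 4 members with the largest log2 differences toward expanded clonotypes of activated TFH cells, which are given further on. They come from RefSeq (GRCm38.p6), which held 10 promoter entries for 7 of the 9 members. *Cd4* and *Thy1* were not among them. Of the 3 *Zap70* entries the one at the start of the gene is printed. Sequences run 5′ to 3′ on the strand of the gene. Capitals mark the letters of 4 motifs searched on both strands, the ETS core GGAAGT, the E-box CAGGTG, the RUNX core TGTGGT and the TATA box TATAAA. None of the marked matches in these sequences overlaps another.
Cd3e (chr9:45009612-45009861, minus strand): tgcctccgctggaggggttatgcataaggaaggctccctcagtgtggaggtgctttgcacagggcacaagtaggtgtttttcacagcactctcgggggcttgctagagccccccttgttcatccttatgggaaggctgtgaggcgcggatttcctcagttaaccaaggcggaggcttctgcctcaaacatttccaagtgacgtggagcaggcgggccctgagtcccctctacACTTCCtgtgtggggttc
Zap70 (chr1:36761548-36761797, plus strand): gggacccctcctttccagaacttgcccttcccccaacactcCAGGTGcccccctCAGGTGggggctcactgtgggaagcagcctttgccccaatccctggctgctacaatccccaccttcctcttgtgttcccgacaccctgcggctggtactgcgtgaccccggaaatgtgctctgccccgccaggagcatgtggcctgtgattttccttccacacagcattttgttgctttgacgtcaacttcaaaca
Cd3g (chr9:44980432-44980681, minus strand): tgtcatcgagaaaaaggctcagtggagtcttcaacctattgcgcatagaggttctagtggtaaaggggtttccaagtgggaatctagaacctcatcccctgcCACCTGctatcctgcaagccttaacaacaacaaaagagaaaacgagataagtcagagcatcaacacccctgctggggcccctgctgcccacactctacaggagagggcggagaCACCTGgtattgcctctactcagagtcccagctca
Cd3d (chr9:44981536-44981785, plus strand): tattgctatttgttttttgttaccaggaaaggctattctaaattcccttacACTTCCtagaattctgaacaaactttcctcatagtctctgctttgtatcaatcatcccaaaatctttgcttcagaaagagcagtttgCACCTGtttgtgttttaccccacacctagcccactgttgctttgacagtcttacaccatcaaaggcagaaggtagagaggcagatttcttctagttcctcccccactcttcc
The *Cd3e* window held 1 ETS core, 13 to 18 bases before the start. The *Cd3d* window held 1 ETS core and 1 E-box, and the *Zap70* and *Cd3g* windows held 2 E-boxes each. Neither the RUNX core nor the TATA box was in these 4 windows. Of all 32851 promoter entries of the same length, 19.74% held the ETS core, 17.22% the E-box, 14.05% the RUNX core and 12.37% the TATA box. A match describes the letters and does not show a bound site.

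Nearly every follicular T cell had UMIs of the CD3 chains and *Lck*. Over the 10 mice, *Cd3e* was found in 99.4% ± 0.316 of cells (SD), *Cd3d* in 98.9% ± 0.319, *Cd3g* in 98.8% ± 0.540 and *Lck* in 97.8% ± 0.716. The other 5 members were found in fewer cells, *Lat* in 85.0% ± 3.68, *Zap70* in 76.4% ± 4.30, *Cd247* in 73.2% ± 4.99, *Cd4* in 67.3% ± 2.03 and *Thy1* in 51.2% ± 8.07. Although the gate required CD4 protein, *Cd4* was found in 63.3% to 69.6% of the cells of a mouse. *Thy1* had the widest range of shares between mice, from 40.8% to 63.3%.

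The members did not share one pattern across the 6 clusters that the authors had named. The clusters are activated TFH (11953 cells), TFR (11650), *Sostdc1* TFH (2803), central memory TFH (725), effector TFH (682) and interferon-stimulated (ISG) TFH (379). A mouse entered a cluster with 20 cells or more, which left 10 mice except in central memory TFH (5 WT and 3 564Igi) and ISG TFH (4 and 4). The clusters were made from the expression of these same cells, so their levels are described without a test. Of the 54 pairs of a member and a cluster, 32 lay on one side of the mouse's other cells in every mouse. The share over all genes is not given here, so this count describes these pairs and is not read as particular to the members.

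Central memory TFH cells held the least of most of the complex. Their *Cd3g* level was 1.79 ± 0.15 (SD, n = 8), and its log2 difference from the same mouse's other cells was -0.91 ± 0.15, below 0 in 8 of 8 mice. *Cd3e* (-0.60 ± 0.13), *Cd3d* (-0.36 ± 0.085), *Zap70* (-0.54 ± 0.13) and *Cd4* (-0.59 ± 0.11) were also below the other cells in 8 of 8 mice. *Cd4* was found in 33.96% of central memory cells, against 58.8% of TFR and 74.5% of activated TFH cells. *Lat* stood the other way, with a difference of 0.35 ± 0.15 and 8 of 8 mice above 0. *Lck* (-0.17 ± 0.18), *Cd247* (-0.17 ± 0.19) and *Thy1* (-0.24 ± 0.18) lay below in 6, 6 and 7 of 8 mice.

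*Sostdc1* TFH cells held the highest *Zap70* level, 1.67 ± 0.13, above the other cells by 0.39 ± 0.092 in 10 of 10 mice and above activated TFH, next in order, by 0.30 ± 0.094. *Lck* (0.18 ± 0.044), *Cd3e* (0.21 ± 0.063), *Cd3g* (0.18 ± 0.090) and *Cd4* (0.23 ± 0.072) were above the other cells in 10 of 10 mice in this cluster, while *Thy1* was below in 10 of 10 (-0.31 ± 0.11). For *Cd3e* the first neighbors in order, effector and *Sostdc1* TFH (3.15 ± 0.25 and 3.13 ± 0.11), did not differ beyond their spread, with a mean difference within mice of 0.015 ± 0.18. The same holds for *Cd4* in *Sostdc1* and activated TFH cells (0.041 ± 0.051).

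TFR and activated TFH cells, the largest clusters, lay on opposite sides for most members. Activated TFH cells made up 11953 of the 16542 cells outside TFR, and TFR cells 11650 of the 16239 outside activated TFH. Opposite signs in these clusters therefore largely repeat the same contrast. In TFR cells *Cd3d* was above the mouse's other cells by 0.27 ± 0.041 and *Cd3g* by 0.11 ± 0.061, both in 10 of 10 mice, while *Cd247* (-0.31 ± 0.12), *Lck* (-0.13 ± 0.035), *Lat* (-0.19 ± 0.12), *Cd4* (-0.34 ± 0.037) and *Thy1* (-0.41 ± 0.15) were below in 10 of 10. Activated TFH cells were below the other cells in *Cd3d* (-0.21 ± 0.046) and *Cd3g* (-0.069 ± 0.037) and above them in *Cd247* (0.24 ± 0.11), *Cd4* (0.29 ± 0.068), *Thy1* (0.45 ± 0.18), *Lat* (0.16 ± 0.10), *Zap70* (0.098 ± 0.052) and *Lck* (0.084 ± 0.036), each in 10 of 10 mice. *Cd3e* hardly separated them, at 2.94 ± 0.095 in TFR and 2.91 ± 0.15 in activated TFH cells, a mean difference within mice of 0.028 ± 0.088. The chains of the complex therefore did not keep one ratio across the clusters, with *Cd3d* highest in TFR cells and *Cd247* lowest there, next to central memory TFH cells (0.014 ± 0.13).

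Effector TFH cells held the most *Thy1*, *Lat* and *Cd247*. *Thy1* was at 1.63 ± 0.32, above activated TFH cells of the same mouse by 0.47 ± 0.34 in 10 of 10 mice, and was found in 79.7% of effector cells against 60.5% of activated and 38.3% of *Sostdc1* TFH cells. *Lat* was at 2.29 ± 0.27, above the other cells by 0.69 ± 0.26 in 10 of 10 mice. *Cd247* was at 1.64 ± 0.27, and its distance from the next cluster in order, ISG TFH, was within its spread (0.22 ± 0.32 in 8 mice). *Zap70*, by contrast, was below the other cells in 10 of 10 mice (-0.21 ± 0.16). In ISG TFH cells *Cd3d* was below the other cells in 8 of 8 mice (-0.19 ± 0.12) and *Thy1* above in 7 of 8 (0.15 ± 0.16).

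**Figure D1:**
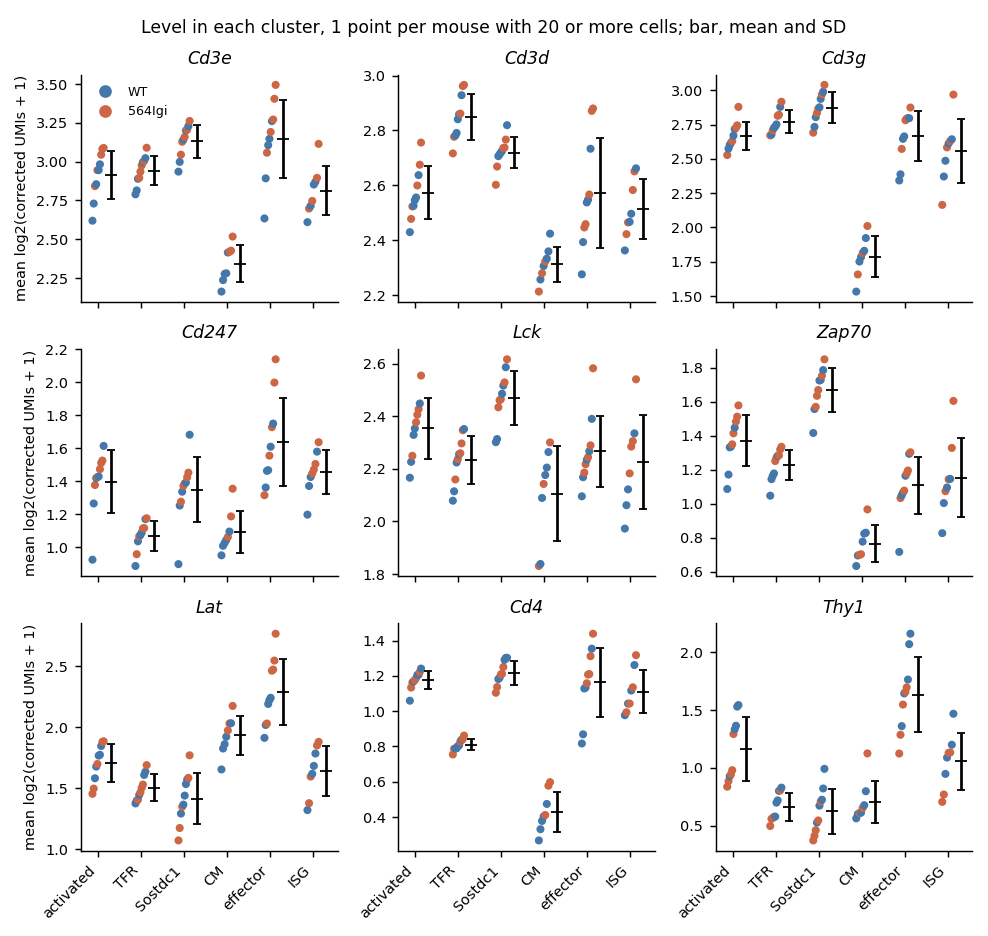
Level of each member in each cluster, as the mean over a mouse's cells of log2(corrected UMIs + 1), with 1 point per mouse (WT and 564Igi in separate colors) and a bar for the mean and SD. Central memory (CM) cells lie lowest for *Cd3e*, *Cd3g*, *Zap70* and *Cd4*, *Sostdc1* TFH cells highest for *Zap70*, and effector TFH cells highest for *Thy1* and *Lat*.

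Across the 56 means of a mouse and cluster, the members fell into groups that did not follow their order in the pathway. These correlations are a description over points that share mice, libraries and normalization. *Cd3e* and *Cd3g* had a Pearson r of 0.87 and *Cd3e* and *Cd4* of 0.81, while *Zap70* and *Lat*, the kinase and its substrate, had r = -0.51 and *Cd3d* and *Cd247* r = -0.079. Among 4951 genes found in at least 10% of cells, the genes most like *Cd3e* were *Cd82* (0.90), *Vamp8* (0.87) and *Cd3g* (0.87) (Pearson r), and those most like *Cd3g* were *Cd82* (0.91), *Fxyd5* (0.89) and *Vamp8* (0.89). *Cd3d* was most like *Cd2* (0.81), *Fth1* (0.80) and *Itm2c* (0.80), and *Cd247* like *Gdi2* (0.78), *Cdc42* (0.74) and *Ucp2* (0.73). For the kinases, *Lck* was most like *Selenok* (0.76), *Zap70* (0.74) and *Ap2m1* (0.74), and *Tnfaip8* and *Angptl2* were among the genes most like *Zap70* (0.92 and 0.90). *Lat* was most like *Ikzf3* (0.85), *Saraf* (0.84) and *Sub1* (0.83), *Cd4* like *S100a11* (0.86), *Vamp8* (0.82) and *Cd82* (0.82) and *Thy1* like *Lpar6* (0.82), *Crip1* (0.79) and *Acp5* (0.76).

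The first comparison asked whether follicular T cells of autoimmune chimeras differ from WT in these genes. In all follicular T cells, 0 of 9 members passed the test (limma, adjusted p below 0.01 and a log2 difference past 0.2), against 0.01% of the 9959 genes tested. At an unadjusted p below 0.05 there were 2 members, *Zap70* and *Thy1*, against 3.19% of genes. The log2 difference, 564Igi minus WT, was above 0 for 8 members and below 0 for *Thy1*, with a median of 0.069 over the members and -0.0018 over all genes tested.

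*Zap70*, the kinase that docks on the CD3 motifs, was at 1.08, 1.14, 1.27, 1.30 and 1.38 in the WT mice and at 1.32, 1.35, 1.41, 1.43 and 1.47 in the 564Igi mice. In this gene 3 of 5 564Igi mice lay above every WT mouse and the others within the WT range. The log2 difference was 0.16 ± 0.070 (SE), with an adjusted p of 0.9997 and an exact permutation p of 0.0317 over the 252 assignments of the mice, unadjusted and two-sided. *Thy1* was at 0.79, 1.01, 1.02, 1.03 and 1.16 in WT and at 0.69, 0.70, 0.76, 0.78 and 1.07 in 564Igi mice. Here 4 of 5 564Igi values were under the lowest WT value, and mouse 17 lay inside the WT range. The log2 difference was -0.20 ± 0.070 (SE, adjusted p = 0.9997). The share of cells with a *Thy1* UMI was 56.2% ± 5.43 in WT and 46.2% ± 7.40 in 564Igi mice (SD, exact permutation p = 0.0556, unadjusted).

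*Cd3e* was at 2.733, 2.749, 2.869, 2.996 and 2.999 in WT and at 2.870, 2.977, 3.039, 3.050 and 3.102 in 564Igi mice (exact permutation p = 0.0873). The groups overlapped, as they did for *Cd3d* (means 2.68 ± 0.059 and 2.71 ± 0.10), *Cd3g* (2.67 ± 0.076 and 2.74 ± 0.13), *Cd247* (1.21 ± 0.19 and 1.31 ± 0.059), *Lck* (2.26 ± 0.12 and 2.35 ± 0.090), *Lat* (1.61 ± 0.094 and 1.62 ± 0.16) and *Cd4* (0.99 ± 0.046 and 1.03 ± 0.032, WT then 564Igi, SD). For these 6 members the exact permutation p lay between 0.175 and 0.913. The WT mouse 12 had the lowest *Cd247*, *Lck*, *Zap70* and *Cd4* levels of its group.

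**Figure D2:**
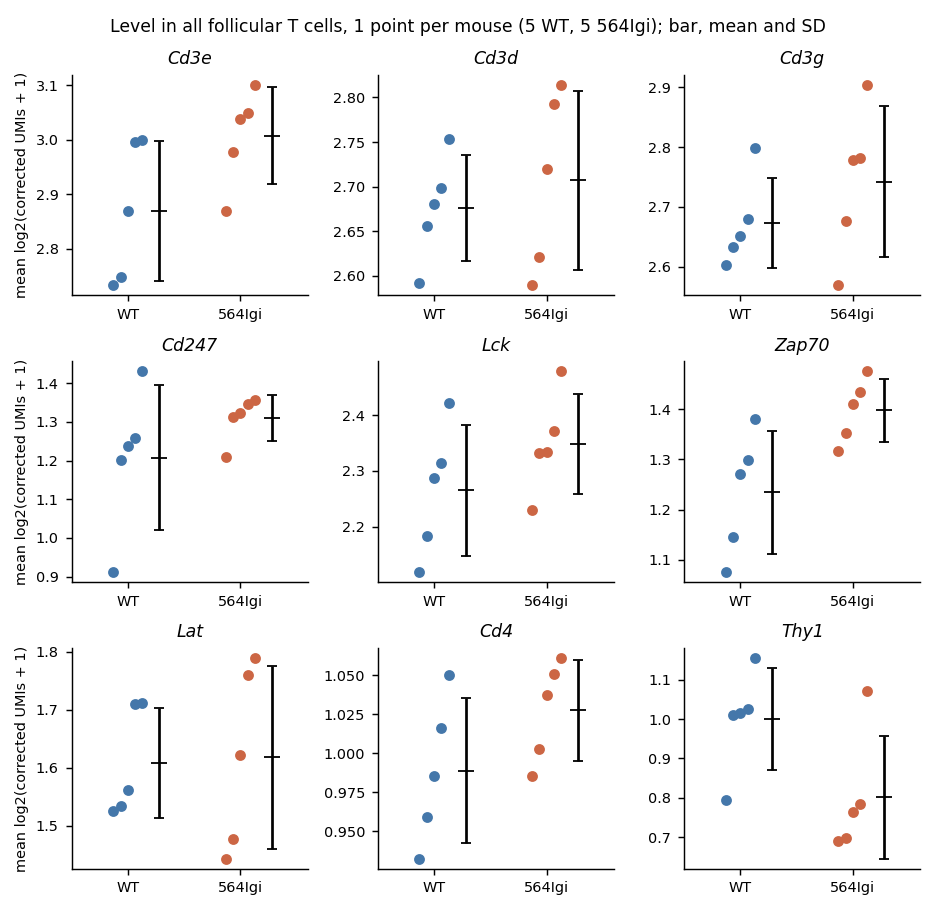
Level of each member over all cells of a mouse, as mean log2(corrected UMIs + 1), in 5 WT and 5 564Igi mice, with a bar for the mean and SD and a separate axis range for each gene. The groups overlap in every panel, and in *Thy1* 4 of 5 564Igi mice lie below every WT mouse.

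Within the clusters, 0 of 9 members passed the test in any of the 6. The share of all tested genes that passed was 0.0101% in activated TFH, 0.02% in TFR, 0.0202% in *Sostdc1* TFH, 0% in central memory TFH, 0.0104% in effector TFH and 0.0106% in ISG TFH cells. At an unadjusted p below 0.05 (limma) there were 2 members in activated TFH (3.99% of genes), 2 in TFR (3.5%), 1 in *Sostdc1* TFH (4.6%), 1 in central memory TFH (7.57%), 3 in effector TFH (5.22%) and 2 in ISG TFH cells (4.2%).

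Among the members, *Thy1* had the log2 difference of greatest size in activated and *Sostdc1* TFH cells. Activated TFH cells held *Thy1* at 0.93, 1.33, 1.36, 1.53 and 1.54 in WT and at 0.84, 0.89, 0.95, 0.98 and 1.29 in 564Igi mice. The 564Igi mice were low except mouse 17, and the WT mice high except mouse 14. The log2 difference was -0.35 ± 0.10 (SE), the adjusted p 0.870 and the exact permutation p 0.0397, unadjusted. The share of activated TFH cells with a *Thy1* UMI was 67.6% ± 8.43 in WT and 53.4% ± 7.89 in 564Igi mice. The *Thy1* difference was -0.25 ± 0.069 in *Sostdc1* TFH cells (adjusted p = 0.591), -0.12 ± 0.051 in TFR cells, -0.34 ± 0.14 in effector and -0.24 ± 0.12 in ISG TFH cells. In central memory TFH cells it was above 0, at 0.15, with 3 564Igi mice, and without mouse 17 it was -0.019.

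Each mouse's TFR minus activated level was then compared between conditions. For *Thy1* the log2 difference of these differences was 0.23 ± 0.064 (SE, unadjusted p = 0.00213, adjusted p = 0.287). In that comparison 0 of 9 members passed and 0% of 9943 genes did, while at an unadjusted p below 0.05 there were 2 members against 7.94% of genes. Without WT mouse 14 the *Thy1* value was 0.29 (adjusted p = 0.0106), and its difference in activated TFH cells was -0.45 (adjusted p = 0.0216). Neither passed the test. Mouse 14 had the lowest WT *Thy1* level in activated TFH cells, so leaving it out favors a larger difference. The values without each of the other mice are not given here for these comparisons. In all cells, the *Thy1* difference ranged from -0.27, without 564Igi mouse 17, to -0.16, without WT mouse 11, when each mouse was left out.

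*Zap70* had a higher mean in 564Igi mice in every cluster, and did not pass the test in any. In TFR cells it was at 1.05, 1.14, 1.16, 1.18 and 1.28 in WT and at 1.25, 1.27, 1.28, 1.32 and 1.34 in 564Igi mice. All WT mice except mouse 14 lay below every 564Igi mouse, and the exact permutation p was 0.0238, unadjusted, with a log2 difference of 0.13 ± 0.057 (SE, adjusted p = 0.9998). The difference was 0.19 ± 0.083 in activated TFH and 0.27 ± 0.12 in ISG TFH cells. In effector TFH cells, *Lat* was at 1.91, 2.02, 2.19, 2.22 and 2.24 in WT and at 2.03, 2.47, 2.47, 2.55 and 2.77 in 564Igi mice, with 4 of 5 564Igi mice above every WT mouse (log2 difference 0.34 ± 0.14 SE, adjusted p = 0.945). These levels rest on 23 to 173 effector cells per mouse. In central memory TFH cells *Cd3e* was at 2.42, 2.43 and 2.52 in the 3 564Igi mice and at 2.16, 2.24, 2.28, 2.28 and 2.41 in the WT mice. The groups did not overlap, by a margin under the rounding of these values, and the exact permutation p was 0.0357, the smallest that 5 against 3 mice allow (limma log2 difference 0.18 ± 0.14, adjusted p = 0.808). The share of all genes without overlap in this cluster is not given here.

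**Figure D3:**
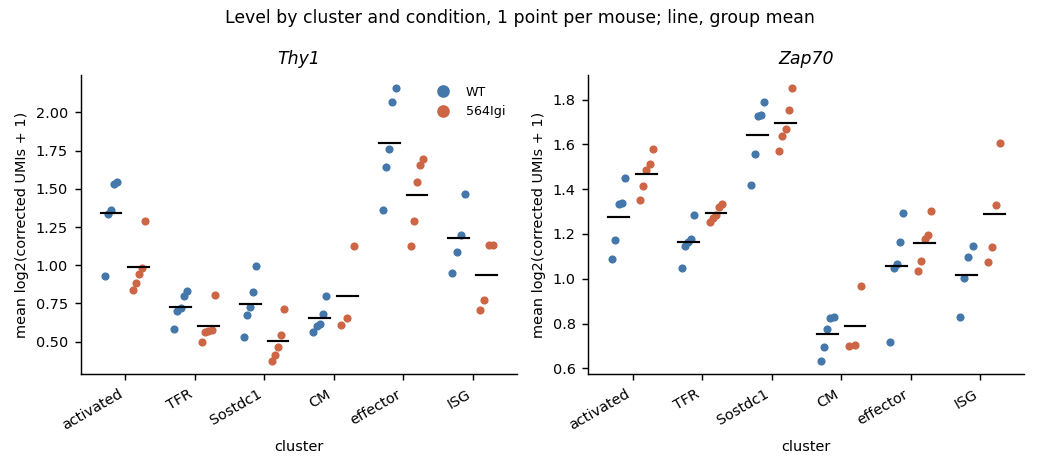
Level of *Thy1* and *Zap70* in each cluster as mean log2(corrected UMIs + 1), with 1 point per mouse with at least 20 cells and a line for the group mean. In activated TFH cells the WT *Thy1* points spread from 0.93 to 1.54 and the 564Igi points from 0.84 to 1.29, and the *Zap70* means lie higher in 564Igi mice in all 6 clusters.

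The wider list of TCR signalling genes had 59 gene symbols (*Carmil2* and *Rltpr* being names of the same gene). They cover kinases and adaptors that carry the signal, genes of the diacylglycerol and calcium branch, and inhibitors. In all cells 56 were tested and 0 passed in either direction (limma), with 3 at an unadjusted p below 0.05 and a median log2 difference of -0.0046. The highest values were those of the adhesion receptor *Cd2* (0.067) and the kinase *Fyn* (0.066), and the lowest those of *Ptprc*, which encodes the phosphatase CD45 (-0.070), and the Ras exchange factor *Rasgrp1* (-0.066). In the clusters 0 of 55 or 56 passed. In the activated TFH cluster the inhibitory receptor *Cd5* (-0.16) and *Ptprc* (-0.11) were lowest and *Cd2* (0.081) and *Fyn* (0.072) highest. In TFR cells the costimulatory receptor *Cd28* (-0.073) and *Ptprc* (-0.062) were lowest and the adaptors *Sla* (0.091) and *Sh2d2a* (0.067) highest. In *Sostdc1* TFH cells *Cd5* (-0.12) and the paracaspase *Malt1* (-0.11) were lowest and *Fyn* (0.062) and the phospholipase *Plcg1* (0.062) highest. The rarer clusters had wider values, with *Cd28* (-0.15) and the diacylglycerol kinase *Dgka* (-0.11) lowest and *Fyn* (0.23) and the adaptor *Fyb* (0.19) highest in central memory TFH cells. In effector TFH cells *Cd28* (-0.16) and the adaptor *Lcp2* (-0.16) were lowest and *Cd2* (0.23) and *Fyn* (0.21) highest. In ISG TFH cells the ubiquitin ligase *Cbl* (-0.12) and the receptor *Cd6* (-0.11) were lowest and *Cd2* (0.16) was highest. In the comparison of TFR with activated TFH cells between conditions, 0 of 56 passed, from *Ubash3b*, a phosphatase (-0.064), and the calcium channel *Orai1* (-0.047) to *Cd6* (0.084) and *Cd5* (0.19).

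The second comparison set cells of expanded clonotypes beside cells whose clonotype was seen once, within each mouse and cluster. Clonotypes came from the TCR libraries. The genes were chosen by name, but with earlier results of these data known. A clonotype was called expanded with 5 cells or more in a mouse. Among activated TFH cells, 4877 expanded cells of 801 clonotypes were set beside 2416 single cells. The largest clonotype held 4.31% to 20.3% of the expanded cells of a mouse.

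Expanded activated TFH cells had more *Cd3e* and *Zap70* than single cells. These 2 of 9 members passed the test, both higher, against 0.25% of the 8814 genes tested. This share, like the others over all genes, counts genes from 1% of cells upward and was not matched to the members' levels. *Cd3e*, the chain that pairs with both CD3 delta and CD3 gamma, was at 3.02 ± 0.14 in expanded and 2.73 ± 0.19 in single cells (SD, n = 10). The difference within mice was lowest at 0.13, had a median of 0.29 and was highest at 0.44, and was above 0 in 10 of 10 mice. In limma it was 0.28 ± 0.033 (SE, adjusted p = 7.79e-07). *Zap70* was at 1.46 ± 0.13 in expanded and 1.25 ± 0.18 in single cells. Its difference within mice was lowest at -0.0083, in mouse 34, had a median of 0.18 and was highest at 0.46, above 0 in 9 of 10 mice (limma 0.22 ± 0.034 SE, adjusted p = 5.62e-05). The share of cells with a *Zap70* UMI was 81.5% in expanded and 74.5% in single cells. Without WT mouse 11 or WT mouse 23 the *Zap70* difference was 0.197 and 0.188, short of the limit of 0.2.

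The other CD3 chains had smaller differences of the same sign. *Cd3g* was higher in 10 of 10 mice, by 0.18 ± 0.033 (SE, adjusted p = 2.99e-04), and missed the limit on the log2 difference. *Cd3d* was higher in 9 of 10 mice by 0.11 ± 0.033 (adjusted p = 0.0330) and *Lck* in 10 of 10 mice by 0.096 ± 0.032 (adjusted p = 0.0541). *Cd4* (0.087) and *Cd247* (0.082) had adjusted p-values of 0.0900 and 0.119, and *Lat* had a difference of -0.065. *Thy1* was lower in expanded cells in 9 of 10 mice, with a difference of -0.16 ± 0.037 (adjusted p = 0.00431), and 58.9% of expanded and 65.9% of single cells held a UMI. At an adjusted p below 0.05 with no limit on the difference, 5 members passed, against 9.66% of genes.

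Cell identity, depth, TCR UMIs and heat shock score moved with this comparison. Their part in the result was tested only as far as the following values go. The median of raw UMIs per cell was lower in expanded cells in 8 of 10 mice, with means of 3513 and 3921. The mean of a cell's UMIs in the TCR library was higher in expanded cells in 8 of 10 mice (24.8 and 22.9). In cells with 1 TCR alpha and 1 TCR beta chain it was 25.8 and 24.6. This split is therefore not independent of the split by TCR UMIs further on. The authors' heat shock score was higher in 9 of 10 (0.0037 and -0.026). The part of TCR UMIs and of this score was not tested. The summed T and follicular identity markers, a list that holds *Cd3e* and *Cd4* themselves, were higher in expanded cells in 10 of 10 mice (13.2 to 17.6 against 9.72 to 14.4 corrected UMIs). *Pdcd1*, which encodes PD-1, was found in 80.8% of expanded and 69.8% of single cells. *Foxp3* was found in 4.68% and 11.5%, and *Cd79b* in 1.64% and 2.98%, both lower in expanded cells in 10 of 10 mice. The other regulatory markers did not move together, since *Ikzf2* was found in 65.5% and 58.6% (higher in 9 of 10 mice) and *Il2ra* in 1.87% and 2.93% (lower in 8), and the summed regulatory list was at 1.35 to 2.04 against 1.48 to 2.04 corrected UMIs, higher in 6 of 10 mice. In cells without a *Foxp3* UMI the differences were 0.28 for *Cd3e* and 0.22 for *Zap70*, and averaged over tertiles of raw UMIs they were 0.25 and 0.23. With each clonotype given the same weight, *Cd3e* differed by 0.23 (adjusted p = 5.94e-07) and passed, and *Zap70* by 0.16 (adjusted p = 4.39e-04), under the limit of 0.2.

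In TFR cells, 3953 expanded cells of 664 clonotypes were set beside 2972 single cells, and 0 of 9 members passed (limma), against 0.112% of 8965 genes. At an unadjusted p below 0.05 there were 5 members, against 19.9% of genes. *Cd3g* differed by 0.13 ± 0.029 (SE, adjusted p = 0.00593), *Cd3e* by 0.12 ± 0.030 (adjusted p = 0.0150) and *Cd3d* by 0.11 ± 0.032 (adjusted p = 0.0342), each above 0 in 9 of 10 mice. With each clonotype given the same weight these values were -0.0059, 0.039 and -0.024, so that they depended on how the clonotypes were weighted. Clone size was counted over all of a mouse's TCR cells, so equal weights also raise clonotypes with few TFR cells. Which clonotypes made the change was not tested. The largest clonotype held 5.99% to 28.3% of a mouse's expanded TFR cells. The mean of a cell's UMIs in the TCR library was higher in expanded TFR cells in 10 of 10 mice (23.4 and 20.9). *Foxp3* was found in 52.8% of expanded and 59.0% of single TFR cells, *Il2ra* in 8.87% and 14.3% (lower in 8 of 10 mice) and *Ikzf2* in 92.7% and 89.1% (higher in 8), and the sum of these 3 was at 4.10 to 6.50 against 4.31 to 5.93 corrected UMIs, higher in 6 of 10. Among cells with a *Foxp3* UMI the values for *Cd3g*, *Cd3e* and *Cd3d* were 0.16, 0.13 and 0.14. *Zap70* (0.050), *Cd247* (0.052), *Lat* (0.070), *Cd4* (0.020), *Lck* (0.011) and *Thy1* (-0.036) had differences of under 0.1 in size. With equal weights *Zap70* was at 0.14 (adjusted p = 0.00945), above 0 in 9 of 10 mice but under the limit of 0.2, and the other 5 lay between -0.027 (*Lck*) and 0.090 (*Cd247*).

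**Figure D4:**
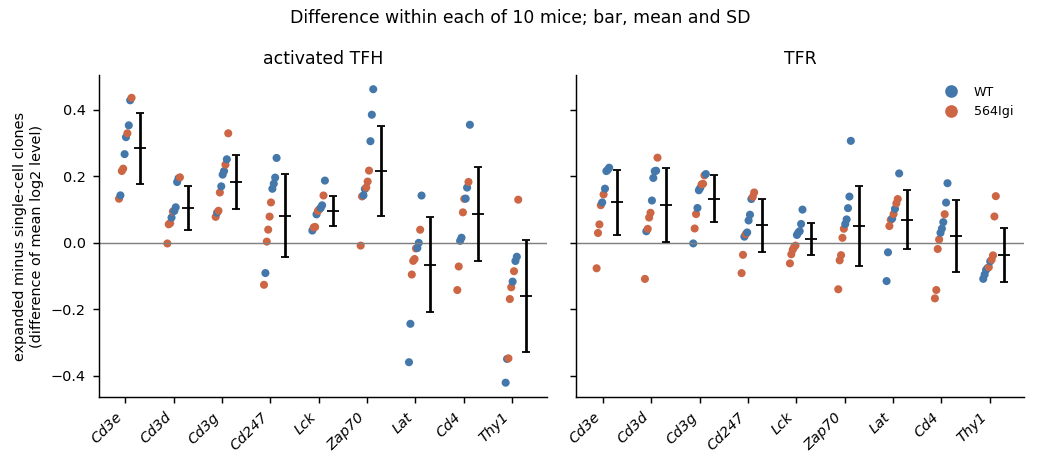
Expanded minus single-cell clonotypes, as the difference of mean log2(corrected UMIs + 1) within each of 10 mice, for activated TFH cells and TFR cells, with a bar for the mean and SD. In activated TFH cells all 10 points of *Cd3e* and *Cd3g* lie above 0 and 9 of 10 points of *Thy1* below it.

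The difference between expanded and single cells was also compared between conditions. In limma 0 of 9 members passed, against 0% of 9896 genes in activated TFH and 0.01% of 9997 genes in TFR cells. At an unadjusted p below 0.05 there were 1 and 4 members, against 7.13% and 6.95% of genes. For *Zap70* in TFR cells the difference was 0.056, 0.070, 0.10, 0.14 and 0.31 in WT mice and -0.14, -0.053, -0.037, 0.015 and 0.042 in 564Igi mice. The WT mice all lay above the 564Igi mice (limma -0.17 ± 0.053 SE, adjusted p = 0.381), and the exact permutation p of 0.00794 is the smallest that 5 against 5 mice allow. With each clonotype given the same weight, the difference between the conditions was -0.065 (exact permutation p = 0.381). For *Lck* it was 0.024, 0.031, 0.035, 0.057 and 0.10 in WT mice and -0.062, -0.034, -0.021, -0.013 and -0.0083 in 564Igi mice, with the conditions on opposite sides of 0 (limma -0.077 ± 0.056 SE, adjusted p = 0.845). That separation was lost with equal weights, where the means were 0.0012 ± 0.073 in WT and -0.054 ± 0.044 in 564Igi mice (SD, exact permutation p = 0.175). The share of all genes whose conditions separate in this way is not given here. Neither separation is therefore read as particular to *Zap70* or *Lck*. *Cd4* (-0.13 ± 0.045) and *Cd3e* (-0.14 ± 0.051) had values below 0 and *Thy1* (0.095 ± 0.038) above 0, with overlap between the conditions.

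Among single TFR cells, *Zap70* was at 1.11 ± 0.087 in WT and 1.30 ± 0.056 in 564Igi mice (SD), and among expanded TFR cells at 1.25 ± 0.11 and 1.27 ± 0.064. For *Thy1* in activated TFH cells, 564Igi minus WT was -0.38 among single and -0.30 among expanded cells. The lower *Thy1* mean of 564Igi mice was thus found on both sides of this split. The *Zap70* means in TFR cells were closer among expanded cells when each cell had the same weight. With each clonotype given the same weight, expanded minus single was 0.17 ± 0.11 in WT and 0.11 ± 0.11 in 564Igi mice (SD). The exact permutation p between conditions was then 0.381, so most of that closing depended on how the clonotypes were weighted.

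Of the wider list, 2 of 54 genes passed in activated TFH cells, both higher in expanded cells. They were *Cd5*, an inhibitory receptor (0.22 ± 0.034 SE, adjusted p = 3.57e-05), and *Ptpn11*, which encodes the phosphatase SHP2 (0.22 ± 0.035, adjusted p = 6.81e-05). The median of the list was -0.020, against -0.0070 over all genes tested. The lowest values were those of *Dgka*, a diacylglycerol kinase that dampens the signal (-0.13), and the adaptor *Skap1* (-0.12). In TFR cells 0 of 55 passed, the lowest being *Cd28* (-0.13, adjusted p = 1.23e-04) and *Fyb* (-0.088), and the highest *Cd2* (0.071) and *Malt1* (0.039). In the comparison of these differences between conditions 0 of 56 passed in either cluster. The values there ran from *Ptpn11* (-0.22) and *Fyn* (-0.11) to the adaptors *Grap2* (0.062) and *Trat1* (0.081) in activated TFH cells, and from *Malt1* (-0.14) and *Cd2* (-0.12) to the adaptors *Grap* (0.075) and *Fyb* (0.081) in TFR cells.

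The third comparison asked whether cells with more TCR transcript also held more of these transcripts. The TCR libraries give UMIs for the receptor chains, whose genes the authors had removed from the expression table. In each mouse and cluster, cells with 1 TRAJ and 1 TRBJ gene were split into tertiles by the sum of their TCR UMIs over both chains. The mean sum was 40.5 in the high and 13.6 in the low tertile of activated TFH cells, and 37.7 and 12.5 in TFR cells.

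*Zap70* was higher in the high tertile in 10 of 10 mice in both clusters. In activated TFH cells it was at 1.49 ± 0.17 against 1.28 ± 0.17 (SD), a difference of 0.21 ± 0.034 (SE, adjusted p = 6.40e-06), and was the 1 member of 9 that passed, against 0.411% of 8753 genes. Without 564Igi mouse 24 it was 0.191, short of the limit of 0.2. In TFR cells it was at 1.34 ± 0.11 against 1.14 ± 0.10, a difference of 0.198 ± 0.030 (adjusted p = 4.78e-06) just short of that limit, so that 0 of 9 members passed against 0.113% of 8870 genes. There 4 members had an unadjusted p below 0.05 in limma, against 51.5% of genes. *Cd4* differed by 0.098 ± 0.022 and *Thy1* by 0.13 ± 0.022 (SE) in TFR cells, each above 0 in 9 of 10 mice. The activated TFH cells had 0.054 ± 0.028 and 0.084 ± 0.045, and *Lat* had 0.10 ± 0.038.

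Depth moved with this split. The median of raw RNA UMIs was higher in the high tertile in 10 of 10 mice, with means of 4383 and 3100 in activated TFH and 4119 and 3063 in TFR cells. Of all genes, 59.6% and 41.1% had an adjusted p below 0.05, and on the log2 of mean corrected UMIs the median of all genes lay at 0.28 and 0.21. When the tertiles were taken within tertiles of raw RNA UMIs, *Zap70* differed by 0.17 in activated TFH and 0.17 in TFR cells, again in 10 of 10 mice. Depth still differed there, with medians of raw UMIs of 3674 and 3518 in activated TFH (higher in 8 of 10 mice) and 3532 and 3409 in TFR cells (higher in 9), and corrected totals higher in 10 and 9 of 10. In these tertiles *Cd3d* differed by 0.17 and 0.18 and was above 0 in 10 of 10 mice in both clusters, and *Cd3g* by 0.11 and 0.15. No member then passed the limit of 0.2. Identity markers still moved, with *Pdcd1* in 81.6% and 72.0% of activated TFH cells and *Foxp3* in 50.8% and 59.0% of TFR cells (high then low tertile, 10 of 10 mice each). *Il2ra*, at 9.28% and 12.5%, was lower in 8 of 10 mice and *Ikzf2*, at 91.0% and 90.5%, higher in 7, and the summed regulatory list was lower in 6 of 10 (4.09 to 6.19 against 4.16 to 6.08 corrected UMIs). The authors' heat shock score was lower in the high tertile in 8 of 10 mice in activated TFH cells (-0.016 and 0.010). In TFR cells it was lower in 10 of 10 (0.020 and 0.067). The part of the heat shock score in the result was not tested, and that of depth and identity was tested no further.

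The CD3 chains and *Lck* depended on the scale. *Cd3e* was at -0.0058 in activated TFH and -0.038 in TFR cells on the deposited scale, at -0.13 and -0.15 with each cell's total rescaled to a common value, and at 0.086 and 0.056 in the tertiles taken within tertiles of RNA UMIs. *Cd3g* had 0.029 and 0.021, -0.095 and -0.087, and 0.11 and 0.15 on the same 3 scales. *Cd3d* and *Lck* were also below 0 when rescaled in activated TFH cells (-0.048 and -0.11), so that no direction is given for the CD3 chains or *Lck* there. *Zap70*, at 0.23 and 0.23 when rescaled, kept its direction on all 3 scales.

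Of the wider list, 0 genes passed by TCR UMIs (limma), with 52 of 54 above 0 in activated TFH and 53 of 55 in TFR cells. Their medians were 0.053 and 0.050, beside 0.026 and 0.020 over all genes tested, and 43 and 37 of them had an unadjusted p below 0.05, against 65.3% and 51.5% of all genes. The highest were *Sh2d2a* (0.13) and the kinase *Csk*, which restrains LCK (0.13), in activated TFH cells, and *Lcp2* (0.15) and *Ptpn11* (0.12) in TFR cells. The lowest were *Malt1* (-0.015) and the calcium channel *Itpr3* (-0.0010) in activated TFH, and the adaptor *Pag1* (-0.0012) and *Cbl* (-8.7e-04) in TFR cells.

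**Figure D5:**
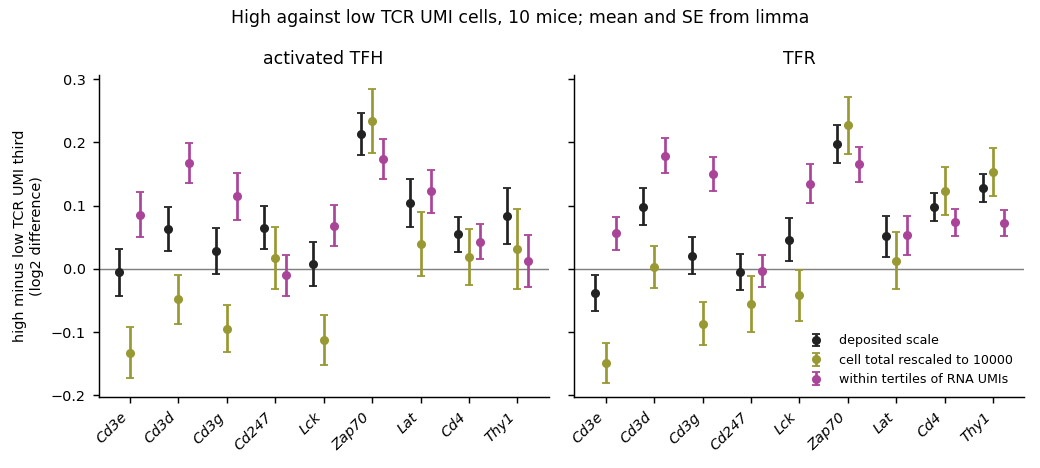
High minus low tertile of TCR UMIs in log2 units, as the limma mean and SE over 10 mice, on the deposited scale, with each cell's total rescaled to a common value, and with tertiles taken within tertiles of raw RNA UMIs. *Zap70* lies above 0 on all 3 scales in both clusters, while *Cd3e* and *Cd3g* change side with the scale.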

How the data were processed

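Follicular T cells of 10 mice were sorted and sequenced as 10x 5′ gene expression and V(D)J libraries, 1 of each per mouse. Per the labels and the study's methods, the authors ran Cell Ranger 4.0.0 on GRCm38 and filtered cells in Seurat 3.1.4 by cell cycle scores, by the content of mitochondrial and ribosomal UMIs, and by the number of genes and UMIs. Receptor V and C genes were removed, and sctransform was run on WT and 564Igi cells separately, with mitochondrial and ribosomal content, UMIs and heat shock score regressed out. A doublet step is not given in the sources used here. The deposited expression values are the natural log of the corrected UMI count plus 1. The authors also deposited the raw UMI count, the mitochondrial percent and a heat shock score of each cell, with its mouse, condition and cluster. 33833 cells had a TCR, of which 21405 were in the expression table.

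Values were turned back into corrected UMIs, and the mean over a mouse's cells of log2(corrected UMIs + 1) was taken for mice with 20 cells or more. Genes with a UMI in 1% of cells or more, in a number of mice not below that of the smaller group (all mice in comparisons within mice), were fitted with limma 3.58.1 (R 4.3.3, variance trend on), on each mouse's own difference in comparisons within mice, with Benjamini-Hochberg adjustment over all genes. A gene passed with an adjusted p below 0.01 and a log2 difference past 0.2. Single values were tested with exact permutations of mice, two-sided, in Python 3.11.15. The libraries of a group come from separate mice of both sexes, so p-values rest on a spread between mice that includes sex. Scripts were tested on simulated data.

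Clone size was counted over all TCR cells of a mouse. A cell's TCR UMIs are listed in ascending order with equal values once, so the beta chain could not be told from the alpha chain. The sum over both chains was used in place of the beta UMIs. Equal values listed once affected 1943 cells, where the listed value was counted for both chains. From that split, 3760 cells without exactly 1 TRAJ and 1 TRBJ gene were left out. A split by alpha UMIs alone was not run.

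The members and gene lists were chosen with earlier results of these data known. All 9 members are named in every comparison. From the wider list, genes that passed are named and, where fewer than 4 did, the 2 highest and 2 lowest log2 differences. A few genes that these rules name are not reported here. Equal clone weights, tertiles of RNA UMIs in the clone comparison, the comparison of expansion between conditions and the *Foxp3* subsets were chosen after seeing the data.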

Additional observations from a re-analysis of the deposited data

Results flagged for a closer look

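Within groups of mice, 153 sets of member values were examined for 1 mouse far from the others, and 5 stood apart by Dixon's test. Chance gives about 1 in 20 such groups. *Thy1* in all cells of 564Igi mouse 17 was at 1.07, while the other 564Igi mice lay between 0.69 and 0.78. In TFR cells the same mouse was at 0.81 for *Thy1*, against 0.50 to 0.58 in the others. *Cd3d* in *Sostdc1* TFH cells of WT mouse 12 was at 2.82, against 2.71 to 2.73 in the other WT mice. *Lck* in effector TFH cells of 564Igi mouse 34 was at 2.58, against 2.19 to 2.29, and rests on 35 cells. The difference in *Cd3e* between the high and low tertiles of TCR UMIs in activated TFH cells was -0.37 in 564Igi mouse 17, against -0.091 to 0.15 in the other 9 mice.

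For *Lck* in TFR cells, the difference between expanded and single cells was above 0 in all 5 WT mice (mean 0.049) and below 0 in all 5 564Igi mice (mean -0.028). The difference between the conditions was -0.077, and in limma it did not pass (adjusted p = 0.845). With clonotypes weighted equally the WT mean was 0.0012 ± 0.073 (SD), and the exact permutation p between conditions was 0.175 in place of 0.00794. The share of all genes with such opposite signs is not given here.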

How the results depend on the processing

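The count of members that passed stayed at 0 in the comparisons of 564Igi with WT, in all cells, in each cluster, in TFR against activated TFH cells and in the effect on expansion, under each alternative run. In activated TFH cells, 2 members passed by expansion. The count was 5 at an adjusted p below 0.05 with no limit on the difference, 1 with no filter on low genes, 4 with each cell's total rescaled, 1 with clonotypes weighted equally, and 1 to 2 with each mouse left out (1 without WT mouse 11 or WT mouse 23). In TFR cells it was 3 at an adjusted p below 0.05 in place of 0, against 3.52% of all genes. By TCR UMIs, the count of 1 in activated TFH cells was 2 at an adjusted p below 0.05 (59.6% of all genes), 0 in tertiles within tertiles of RNA UMIs, and 0 to 1 with each mouse left out (0 without 564Igi mouse 24). The count of 0 in TFR cells was 4 at an adjusted p below 0.05 (41.1% of all genes), 1 with totals rescaled, 2 with the log2 of the mean, and 0 to 1 with each mouse left out (1 without WT mouse 11, 14 or 23 or 564Igi mouse 21). Apart from the looser adjusted p, the number of all genes that passed moved too. It reached 276 by expansion in activated TFH cells, and 2855 in activated TFH and 1105 in TFR cells by TCR UMIs. Shares over all genes under each of the other settings are not given here. These counts are therefore not read as particular to the members.

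Signs reversed for *Thy1* in central memory TFH cells without 564Igi mouse 17 (-0.019, range with each mouse left out -0.019 to 0.24), and by expansion in TFR cells for *Thy1* above 10 cells (8.1e-04) and for *Thy1* (0.031), *Cd3g* (-0.0059) and *Cd3d* (-0.024) with clonotypes weighted equally. By TCR UMIs in activated TFH cells they reversed in those tertiles for *Cd247* (-0.010) and *Cd3e* (0.086), and with totals rescaled for *Lck* (-0.11), *Cd3g* (-0.095) and *Cd3d* (-0.048). In TFR cells they reversed for *Cd3e* in those tertiles (0.056) and for *Lck* (-0.042) and *Cd3g* (-0.087) with totals rescaled. The cause was not tested. A sign was read only where the difference exceeded its SE or the alternative had an unadjusted p below 0.05.

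Of 2313 alternative values of member differences, 2272 kept their side of the threshold with no reversal by the rule above. Of the rest, 6 no longer passed, 22 newly passed and 13 reversed. Sign changes outside that rule were not counted as reversals. Over all genes, the number that passed ranged from 8 to 276 by expansion in activated TFH and 6 to 68 in TFR cells, from 10 to 2855 by TCR UMIs in activated TFH and 3 to 1105 in TFR cells, and from 0 to 9 in the comparisons between conditions. No paired analysis was possible because the WT and 564Igi mice share no replicate numbers.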
